A study of Oryctolagus cuniculus with 6 samples.

Results

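The genes described here make, cut and bind hyaluronan in primary limbal stem cells (LSCs) of the rabbit cornea. They were chosen by name for their role, by a rule that uses no measured value, though with earlier results of these data known. All 10 were found among the 22190 genes of the count table, namely HAS2, HAS3, HYAL1, HYAL2, CEMIP, CD44, HMMR, TNFAIP6, PTX3 and VCAN. All 10 also had enough reads to be among the 15029 genes tested. The fresh group was 3 libraries of LSCs that grew out of limbal explants of fresh rabbit corneas. The preconditioned group was 3 libraries of LSCs from corneas that had spent a week in liquid nitrogen, in a freezing medium with the inflammatory cytokine IL-1β, and were then thawed for explant culture. Both treatments came together, so their parts cannot be told apart, and the cytokine was given to the tissue and not to the cultured cells. The rabbits' strain, age and genotype, and the animal behind each library, are not given in the sources used here. The p values therefore measure the spread between these libraries, which may be technical.

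Hyaluronan is a long, unsulfated sugar chain that enzymes of the HAS family spin out through the plasma membrane from UDP-sugars. Hyaluronidases cut it, and CD44 and other receptors hold it at the cell surface. TNFAIP6 (TSG-6) moves heavy chains of inter-alpha-inhibitor from their carrier onto hyaluronan, and PTX3 can bind the product, the HC-HA/PTX3 matrix known from amniotic membrane and the limbal niche. IL-1 is a known inducer of TNFAIP6, PTX3 and HAS2 in many cell types.

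The libraries held 31952352 to 34327534 counts on genes, so the members' own counts, from 73 to 38475 per library, were limited by the spread between libraries more than by depth. Counts per library size (CPM) were scaled by the trimmed mean of M values (TMM). FPKM, which also divides by gene length and carries no TMM scaling, was used for levels between genes and for ratios within a library, and group differences rest on CPM unless FPKM is named. On the first principal component (50.4% of the variance) preconditioned replicate 1 lay at 8.13, between the fresh libraries (−53.1 to −41.1) and the other preconditioned libraries (58.3 and 70.4), so results that change without it are also given that way. The cells were epithelial by their markers. KRT5, a basal keratin, was at 7337 to 11740 CPM and KRT3, the corneal keratin, at 239 to 2655 CPM, and 7 of 10 listed epithelial names were found, whose sum was 9758 to 13490 CPM in fresh and 9167 to 13500 CPM in preconditioned libraries. TP63, the limbal progenitor factor, was at 226 to 246 CPM in fresh and 112 to 184 CPM in preconditioned libraries (log2 fold change −0.77, edgeR's adjusted p = 0.059). PAX6, the eye master regulator, and EPCAM, an epithelial adhesion molecule, had log2 fold changes of 0.81 and 0.50 (edgeR's adjusted p = 0.11 and 0.060). These 3 had an unadjusted p of 0.05 or less, and none of the 7 passed edgeR's or DESeq2's cutoffs with all libraries. With preconditioned replicate 1 left out, edgeR called TP63 lower and PAX6 higher. That fit called 9.99% of all tested genes (6.01% lower, 3.98% higher), against 2.29% with all libraries, and DESeq2 called 7.78%. These shares apply to the calls below as well. Markers of stromal fibroblasts were also read, and 10 of them summed to 545 to 1147 CPM in fresh and 870 to 1773 CPM in preconditioned libraries. Most of this sum came from VIM, COL1A2, COL3A1 and DCN, and which cells made these transcripts was not tested. Of the 10, 0 passed in edgeR or DESeq2 or had an unadjusted p of 0.05 or less. Of 8 leukocyte markers tested, 0 passed in edgeR and 1 (CD68, higher) in DESeq2 and in edgeR without preconditioned replicate 1, and the sum was 159 to 192 CPM in fresh and 192 to 389 CPM in preconditioned libraries, most of it from CD68 and LAPTM5, while PTPRC, which defines leukocytes, did not exceed 1.50 CPM in any library. The defining endothelial genes CDH5 and VWF stayed at or under 0.224 CPM, and PECAM1 and CLDN5 reached 12.8 and 0.384 CPM. PECAM1 had a log2 fold change of 1.27 (edgeR's adjusted p = 0.32) and was called higher without preconditioned replicate 1. Among melanocyte genes, MLANA, PMEL and TYR stayed at or under 0.0821 CPM, and TYRP1 and MITF reached 2.60 and 5.44 CPM. TYRP1 had a log2 fold change of 2.59 (edgeR's adjusted p = 0.12) and was called higher by DESeq2 and by edgeR without preconditioned replicate 1, and MITF had −0.61 (edgeR's adjusted p = 0.20) without overlap of the groups. In such bulk libraries, fewer cells of a type and less RNA per cell cannot be told apart.

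None of the 10 hyaluronan genes passed the study's cutoffs between the groups with edgeR, which 2.29% of all tested genes did. These cutoffs, applied to edgeR's quasi-likelihood test, are an adjusted p of 0.05 or less and a log2 fold change of 1 or more in either direction. HAS3 came nearest, with a mean in the preconditioned group 2.85-fold below that of the fresh group, and CD44 was 1.36-fold above. These were the 2 members whose 95% interval of the log2 fold change left out 0, whose unadjusted p was at most 0.05 (30.6% of all tested genes) and whose groups did not overlap (36.7% of all tested genes). By sign, 4 log2 fold changes were positive and 6 negative, with a median of −0.09 against 0.01 over all tested genes. The paper made its own calls with DESeq2. With that tool's Wald test, HAS3 alone passed the cutoffs, as lower, which 7.78% of genes passed (4.17% as lower). Without preconditioned replicate 1, edgeR called HAS3 and HMMR, both lower, when 9.99% of tested genes passed (6.01% as lower, 3.98% as higher).

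**Figure D1:**
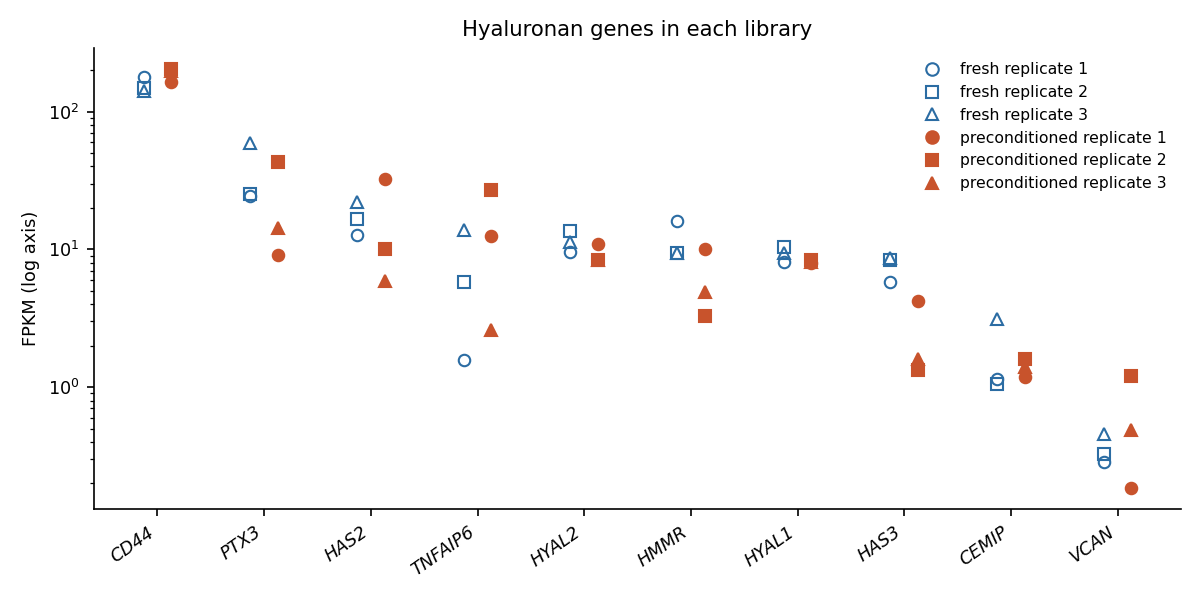
FPKM of the 10 hyaluronan genes on a log axis, with 1 point per library and genes ordered by their mean over all 6 libraries. CD44 lies above 141 FPKM in every library, and the points of HAS3 do not overlap between the groups.

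In level per length, CD44 stood far above the other members. Its mean over the 6 libraries was 172 FPKM, rank 439 of all genes in the table, and its lowest library (141 FPKM) was above the highest of any other member, 59.5 FPKM for PTX3. PTX3 (mean 29.3 FPKM), HAS2 (16.6), TNFAIP6 (10.5), HYAL2 (10.3), HMMR (8.85) and HYAL1 (8.72) followed. These neighbours overlapped in their ranges, and TNFAIP6 was above HYAL2 in 3 of 6 libraries and HMMR above HYAL1 in 3 of 6. HAS3 (mean 4.99 FPKM) lay below HYAL1 in 6 of 6 libraries. CEMIP (1.58 FPKM) and VCAN (0.492 FPKM) were the lowest, CEMIP above VCAN in 6 of 6.

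**Figure D2:**
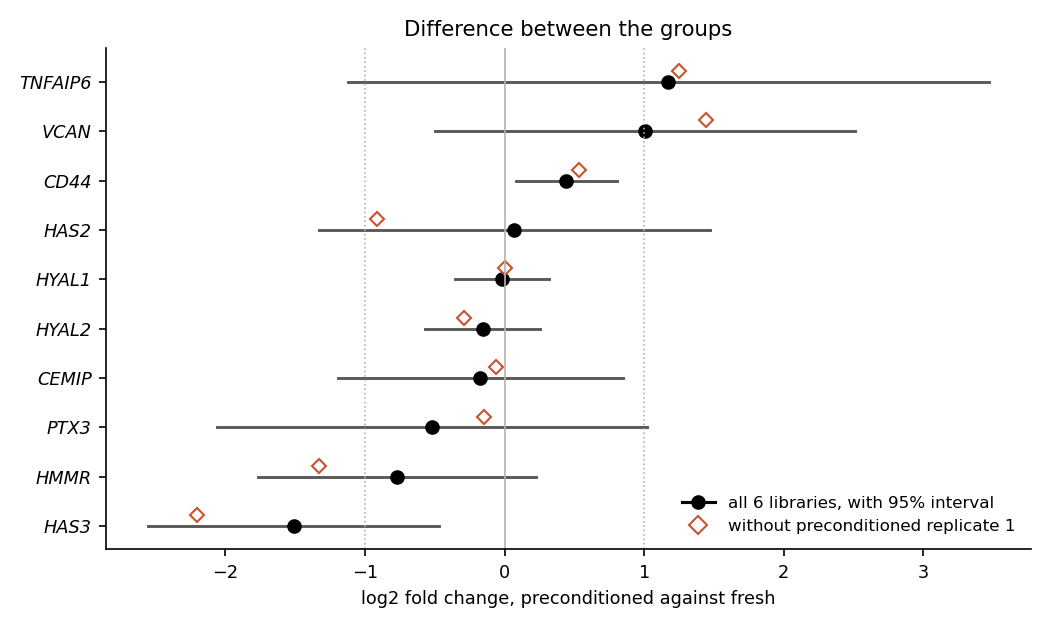
Log2 fold change of each hyaluronan gene, preconditioned against fresh, as black points with 95% intervals from edgeR, and as open diamonds without preconditioned replicate 1. Dotted lines mark the cutoff of 1 in either direction. The intervals of HAS3 and CD44 leave out 0, and HAS2 moves from 0.07 to −0.92 without that library.

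The hyaluronan synthases differed in how they behaved. HAS3, which is generally credited with shorter chains than HAS2, was at 25.6, 36.6 and 37.5 CPM in the fresh libraries and at 20.4, 6.71 and 7.84 CPM in preconditioned replicates 1, 2 and 3. Every preconditioned library was below every fresh library. The log2 fold change was −1.51 (SE 0.44, 95% interval −2.55 to −0.47, edgeR's adjusted p = 0.080), and the exact 2-sided permutation p was 0.1, the smallest that 3 libraries against 3 allow. DESeq2 gave the same size, −1.51, with an adjusted p of 0.0042. Without preconditioned replicate 1, the highest of its group, the log2 fold change was −2.20 (SE 0.22, edgeR's adjusted p = 0.0040). Leaving out any other single library gave −1.67 to −1.23, with edgeR's adjusted p at 0.14 to 0.21.

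HAS2, the main synthase of many embryonic and wound tissues, was at 59.0, 77.5 and 101 CPM in the fresh libraries and at 165, 54.0 and 30.7 CPM in the preconditioned libraries. Preconditioned replicate 1 was thus the highest of all 6 and the other 2 were the lowest. The group means, 79.3 ± 21.3 and 83.2 ± 71.8 CPM (SD, n = 3 each), did not differ beyond this spread (log2 fold change 0.07, SE 0.59, 95% interval −1.33 to 1.47, edgeR's adjusted p = 0.95). Without preconditioned replicate 1 the log2 fold change turned to −0.92 (edgeR's adjusted p = 0.099), and it was also negative, at −0.09, when libraries were scaled by size alone.

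Within each library, the ratio of HAS2 to HAS3 in FPKM does not depend on how libraries are scaled. This ratio, examined after the values were seen, was 2.18, 2.0 and 2.56 in the fresh libraries and 7.64, 7.60 and 3.70 in the preconditioned libraries. All 3 preconditioned libraries were above all 3 fresh ones, including replicate 1, where HAS2 was high, and replicates 2 and 3, where both synthases were lower. The mean ratio was 2.25 ± 0.29 in fresh and 6.31 ± 2.26 in preconditioned libraries (SD, n = 3 each), a 2.68-fold difference of the geometric means (exact 2-sided permutation p = 0.1, the smallest possible). The log2 difference, 1.42, lay between 1.25 and 1.77 on leaving out single libraries. HAS1, the remaining synthase, was not tested because its counts were too low, at 0.0821 to 1.73 CPM.

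**Figure D3:**
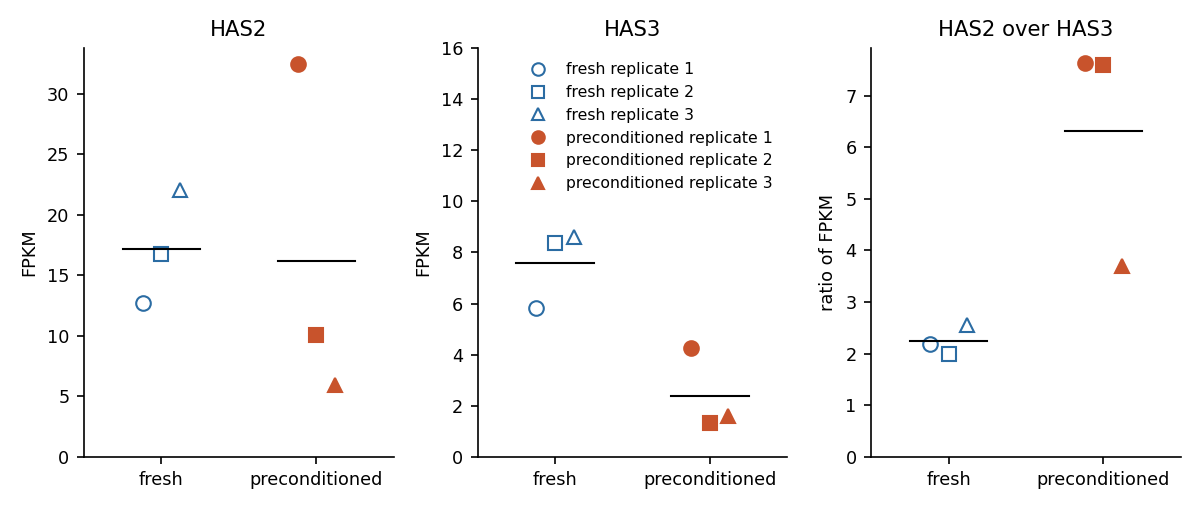
FPKM of HAS2, FPKM of HAS3 and the ratio of the HAS2 to the HAS3 value in each library, with axes from 0 and a line at each group's mean. HAS2 spans 5.94 to 32.4 FPKM in the preconditioned group, HAS3 is lower in all 3 preconditioned libraries, and the ratio is 3.70 or more there against at most 2.56 in the fresh group.

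HYAL1 and HYAL2, which cut hyaluronan, varied little between libraries, with the highest value of a group at most 1.41 times the lowest. HYAL1, a lysosomal hyaluronidase, was at 18.8, 23.9 and 21.4 CPM in fresh and 20.3, 22.3 and 20.8 CPM in preconditioned libraries. Its log2 fold change was −0.02 with a 95% interval of −0.35 to 0.32. HYAL2, anchored at the cell surface, was at 23.0, 32.3 and 27.1 CPM in fresh and 28.5, 23.1 and 22.2 CPM in preconditioned libraries. The groups overlapped, and the log2 fold change was −0.16 (95% interval −0.57 to 0.25, edgeR's adjusted p = 0.57). For both enzymes the interval thus left out a 2-fold difference in either direction. The pair are neighbours on the chromosome in the RefSeq annotation of the assembly mOryCun1.1.

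CEMIP, a protein needed for the breakdown of hyaluronan in skin fibroblasts, was at 6.09, 5.57 and 16.3 CPM in fresh and 6.82, 9.82 and 8.20 CPM in preconditioned libraries. Fresh replicate 3 was the highest and the groups overlapped (log2 fold change −0.17, 95% interval −1.20 to 0.85, edgeR's adjusted p = 0.81). Without that library the log2 fold change was 0.50 (edgeR's adjusted p = 0.29), so its sign rested on 1 library. CEMIP2, a related hyaluronidase of the cell surface, was far more abundant, at 21.9 FPKM on average against 1.58 FPKM for CEMIP, with a log2 fold change of −0.17 (edgeR's adjusted p = 0.37).

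CD44, the main surface receptor for hyaluronan, was at 932, 771 and 732 CPM in fresh and 938, 1230 and 1140 CPM in preconditioned libraries. The groups did not overlap, but fresh replicate 1 and preconditioned replicate 1 were almost equal, and in FPKM, which carries no TMM scaling, they were at 178 and 164 and the groups overlapped. The means were 812 ± 106 and 1103 ± 149 CPM (SD, n = 3 each). The log2 fold change was 0.44 (SE 0.15, 95% interval 0.08 to 0.80, edgeR's adjusted p = 0.11). The interval excluded a doubling. Without preconditioned replicate 1 the log2 fold change was 0.54 with an adjusted p of 0.034 from edgeR, still under the cutoff on size. Leaving out any other single library gave 0.36 to 0.55, with edgeR's adjusted p at 0.15 to 0.3. The values are per gene, so they do not tell CD44 splice forms apart.

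Other proteins anchor CD44 to actin, shed it or set its splicing. Of 8 such genes tested, 0 passed the cutoffs in edgeR or DESeq2, 1 had an unadjusted p of 0.05 or less, and the median log2 fold change was −0.02. EZR (ezrin), the most abundant of them at 276 FPKM, had a log2 fold change of −0.09, and the sheddases ADAM10 and ADAM17 had 0.02 and 0.08. ESRP2, an epithelial splicing factor, was at 92.3, 95.1 and 90.9 CPM in fresh and 72.2, 46.2 and 53.0 CPM in preconditioned libraries, without overlap (log2 fold change −0.70, SE 0.17, edgeR's adjusted p = 0.056). Its relative ESRP1 had 0.25 (edgeR's adjusted p = 0.40).

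HMMR (RHAMM) binds hyaluronan outside the cell and is best known inside it, as a spindle protein that is made mostly in dividing cells. It was at 35.9, 21.2 and 20.9 CPM in fresh and 24.8, 8.57 and 12.2 CPM in preconditioned libraries. Preconditioned replicate 1 lay within the fresh range and the other 2 below it. The log2 fold change was −0.77 (SE 0.42, 95% interval −1.77 to 0.22, edgeR's adjusted p = 0.26), and without preconditioned replicate 1 it was −1.33 with an adjusted p of 0.027 from edgeR. Leaving out any other single library gave −0.91 to −0.47, with edgeR's adjusted p at 0.29 to 0.54.

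HMMR was set beside 14 genes of dividing cells, a list of kinases, cyclins and mitotic proteins. All 14 had a negative log2 fold change, with a median of −1.56, and 12 of them were lower without overlap of the groups (18.8% of all tested genes were). None passed edgeR's cutoffs, 12 had an unadjusted p of at most 0.05, and 11 passed DESeq2's cutoffs, all lower (those left were CDK1, AURKA and TPX2). Without preconditioned replicate 1, edgeR called all 14 lower, with a median log2 fold change of −2.27. Their summed level was 1169, 798 and 759 CPM in fresh and 614, 212 and 258 CPM in preconditioned libraries. Preconditioned replicate 1 was the highest of its group in this sum and in HMMR, and fresh replicate 1 the highest of its group in both. CCNB1, cyclin B1, had a log2 fold change of −1.54 (SE 0.47, edgeR's adjusted p = 0.088) and CDK1, its kinase, −1.03 (SE 0.46, edgeR's adjusted p = 0.18).

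HMMR stood less far below its fresh level than most of these genes. Against the fresh mean, its log2 ratio was −0.07, −1.60 and −1.09 in preconditioned replicates 1, 2 and 3, and the median of the 14 genes was −0.68, −2.40 and −2.10. In these libraries 13, 12 and 13 of the 14 genes lay below HMMR, and in fresh replicates 1, 2 and 3 it was 13, 1 and 3. Per 1000 CPM of the summed list, HMMR made up 30.7, 26.6 and 27.5 CPM in fresh and 40.5, 40.4 and 47.4 CPM in preconditioned libraries. The 2 sets did not overlap (1.51-fold, exact 2-sided permutation p = 0.1, the smallest possible), and the log2 difference of 0.59 lay between 0.52 and 0.66 on leaving out single libraries. This ratio was also chosen after the values were seen.

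**Figure D4:**
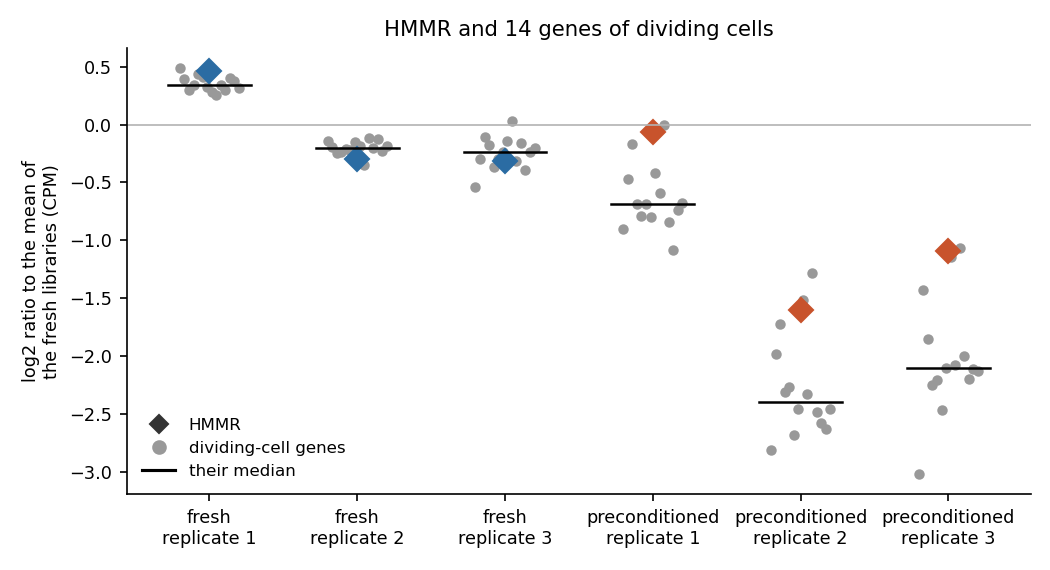
Log2 ratio of CPM to the mean of the fresh libraries for HMMR (diamonds) and 14 genes of dividing cells (grey points, with their median as a line) in each library. In the 3 preconditioned libraries HMMR lies above the median of the list, by less in replicate 1 (−0.07 against −0.68) than in replicate 3 (−1.09 against −2.10).

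The partners of the HC-HA matrix varied widely between libraries of one group, TNFAIP6 the most of all 10 members. TNFAIP6, the enzyme that loads heavy chains, was at 2.12, 7.74 and 18.3 CPM in fresh and 18.35, 41.3 and 3.82 CPM in preconditioned libraries. Its highest library was 8.63 times its lowest in the fresh group and 10.8 times in the preconditioned group. The log2 fold change of 1.17 therefore had a wide 95% interval, −1.12 to 3.47 (edgeR's adjusted p = 0.44), and lay between 0.24 and 2.10 on leaving out single libraries.

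PTX3 was at 45.1, 46.8 and 109 CPM in fresh and 18.35, 92.7 and 29.2 CPM in preconditioned libraries. Preconditioned replicates 1 and 3 were the lowest of the 6 and replicate 2 the second highest. The log2 fold change was −0.52 (95% interval −2.06 to 1.02, edgeR's adjusted p = 0.62), and 0.02 without fresh replicate 3. TNFAIP6 and PTX3 thus had opposite signs, although neither differed beyond its spread. In preconditioned replicate 1 both had 603 counts (18.35 CPM), while in fresh replicate 1 PTX3 was at 45.1 and TNFAIP6 at 2.12 CPM.

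VCAN, versican, a large proteoglycan that binds hyaluronan by its N-terminal domain, was at 3.48, 3.97 and 5.44 CPM in fresh and 2.46, 16.8 and 6.62 CPM in preconditioned libraries. Preconditioned replicate 1 was the lowest and replicate 2 the highest of the 6. The log2 fold change was 1.01 (SE 0.63, 95% interval −0.50 to 2.51, edgeR's adjusted p = 0.32). It was 0.08 without preconditioned replicate 2 and 1.44 without preconditioned replicate 1 (edgeR's adjusted p = 0.052).

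Fibroblasts are a usual source of TNFAIP6, PTX3 and VCAN, and the 10 fibroblast markers summed to 545, 834 and 1147 CPM in fresh and 870, 1773 and 962 CPM in preconditioned libraries. Preconditioned replicate 2, the highest in this sum, was also the highest in TNFAIP6 and VCAN and the second highest in PTX3. Fresh replicate 1, the lowest in the sum, was the lowest in TNFAIP6 but not in PTX3 or VCAN. Not every library followed the sum. Preconditioned replicate 1, in the middle of the sum, was the lowest of all 6 in PTX3 and VCAN, and preconditioned replicate 3, the third highest in the sum, was the second lowest in TNFAIP6 and PTX3. The part of stromal cells in these values was not tested. Per 1000 CPM of this sum, VCAN was at 4.74 to 6.39 CPM in fresh and 2.83 to 9.48 CPM in preconditioned libraries, PTX3 at 56.1 to 95.4 and 21.1 to 52.3 CPM, and TNFAIP6 at 3.88 to 15.9 and 3.97 to 23.3 CPM. On this scale PTX3 was lower in every preconditioned library than in any fresh one, a comparison made after the values were seen and not tested. The nearest values, 52.3 and 56.1 CPM, lay close together, and the order may depend on which markers lead the sum.

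**Figure D5:**
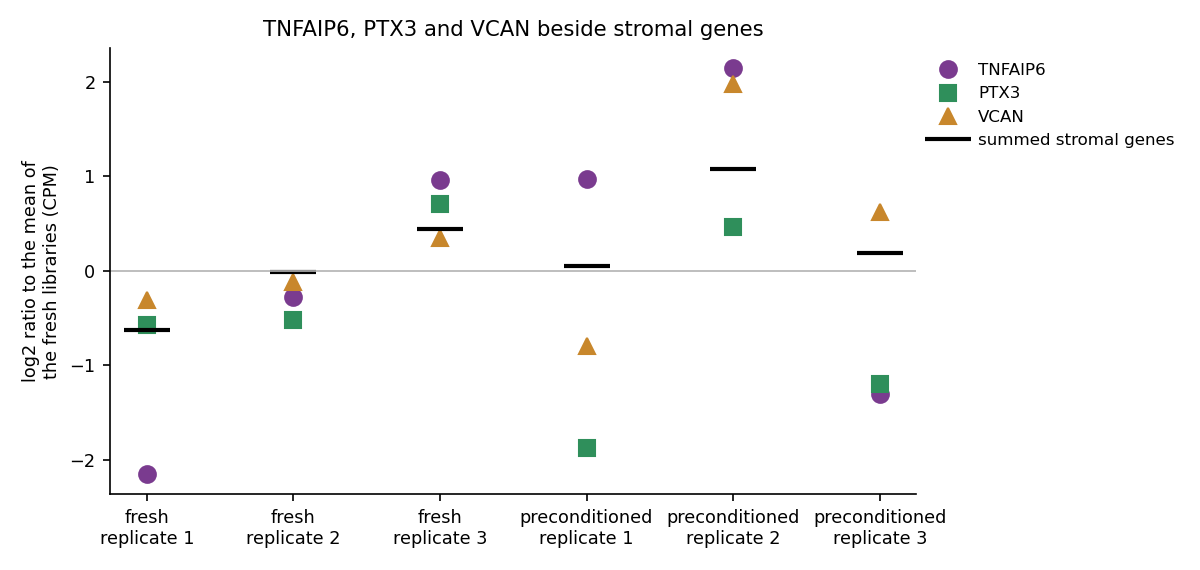
Log2 ratio of CPM to the mean of the fresh libraries for TNFAIP6, PTX3, VCAN and the sum of 10 stromal marker genes in each library. All 4 lie above 0 in preconditioned replicate 2 and in fresh replicate 3, and TNFAIP6 runs from −2.15 in fresh replicate 1 to 2.14 in preconditioned replicate 2.

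The heavy chains that TNFAIP6 transfers come from the ITIH genes, which are expressed mainly in liver. ITIH1, ITIH2, ITIH3 and ITIH4 did not exceed 0.198 CPM in any library and were not tested. ITIH5, a family member outside the serum complex, was at 0.478 to 1.94 CPM with a log2 fold change of 0.03 (edgeR's adjusted p = 0.98). Of the genes that IL-1 is known to induce, 12 were tested, 0 passed edgeR's cutoffs and 1 (CCL2, lower) DESeq2's, 2 had an unadjusted p of 0.05 or less, 6 were positive and 6 negative, and the median log2 fold change was −0.01. The 2 were CCL2 and NFKBIA, both negative at −1.815 and −0.41 (edgeR's adjusted p = 0.15 and 0.061). IL6 was also negative, at −1.895 (edgeR's adjusted p = 0.20). IL1A and CXCL8, the most abundant of the 12, had 0.31 and 0.31 (edgeR's adjusted p = 0.36 and 0.78). The sum of the 12 was 1615 to 2693 CPM in fresh and 1826 to 3060 CPM in preconditioned libraries.

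Beyond these members, 49 further genes of hyaluronan metabolism were listed, 42 of them were found and 31 could be tested, including the CD44 partners above. By edgeR's cutoffs 0 were called, 4 had an unadjusted p of at most 0.05 (among them UGP2, ACAN and ESRP2), and DESeq2 called ACAN alone. The median log2 fold change was 0.03, and 8 of 31 had groups without overlap (25.8%, against 36.7% of all tested genes).

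UGP2 makes UDP-glucose, from which UGDH makes the UDP-glucuronate of hyaluronan. It was at 162, 142 and 135 CPM in fresh and 233, 329 and 292 CPM in preconditioned libraries, every preconditioned value above every fresh one. Its log2 fold change of 0.96 (SE 0.15, edgeR's adjusted p = 0.032) missed the cutoff on size, while 5.08% of all tested genes met the limit on the adjusted p alone. UGP2 passed both cutoffs without preconditioned replicate 1. UGDH, the next enzyme, had a log2 fold change of 0.17 (edgeR's adjusted p = 0.45). GFPT1, which starts the branch to UDP-N-acetylglucosamine, had 0.39 (edgeR's adjusted p = 0.17). In all, 6 of 7 precursor genes had a positive log2 fold change, with a median of 0.17, but 4 of 7 without preconditioned replicate 1. The sum of the 7 was 614 to 692 CPM in fresh and 786 to 947 CPM in preconditioned libraries, and most of this difference came from UGP2 (means of 146.5 and 284.6 CPM) and GFPT1 (247.2 and 324.1 CPM).

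Lysosomal enzymes that finish the breakdown of hyaluronan were led by HEXA, at 96.8 FPKM, with a log2 fold change of 0.45 (edgeR's adjusted p = 0.26). Of the 5 genes tested among the other synthases and breakdown enzymes, 2 were positive and 3 negative.

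Among other binders of hyaluronan, ACAN (aggrecan), a proteoglycan best known from cartilage, was at 1.25, 0.563 and 2.33 CPM in fresh and 5.05, 6.04 and 9.42 CPM in preconditioned libraries. All 3 preconditioned libraries were above the fresh ones (log2 fold change 2.31, SE 0.53, edgeR's adjusted p = 0.052, and 0.00016 in DESeq2). ACAN thus lay next to the cutoff, and it passed with 2 other filters on low counts and without preconditioned replicate 1. HABP4, the most abundant of this list per length at 10.4 FPKM, had 0.18 (edgeR's adjusted p = 0.37). The endothelial receptors LYVE1 and STAB2 did not exceed 0.230 CPM. Of the proteases that cut versican, 5 were tested and 0 passed in edgeR or DESeq2, also at an unadjusted p of 0.05, with ADAMTS1 the most abundant (3.92 FPKM, log2 fold change −0.01).

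For each member, the tested genes with the most similar profile over the 6 libraries were sought by the root mean square difference of log2 CPM, each gene centred on its own mean. FANCI and UBE2T, both of DNA repair, were nearest to HMMR, at 0.09 and 0.10. URB2 and DMRTA2 were nearest to HAS3 (0.16 and 0.17), and GPNMB was second nearest to PTX3 (0.19). The nearest genes to HAS2 were at 0.21 and 0.22 and those to TNFAIP6 at 0.46 and 0.49, with F3, the tissue factor, first for TNFAIP6. VCAN was nearest to ALOX5AP (0.16), CEMIP had FMOD second (0.12), and CD44, HYAL1 and HYAL2, which varied little, had neighbours at 0.04 to 0.05. With 6 libraries and 15029 genes such closeness is a description only.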

How the data were processed

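Reads were aligned by the authors with hisat2 and assigned to genes with htseq-count, and these deposited raw counts were the input here. The deposited FPKM values were checked against them: each is the count over the library total and over a single length for that gene. The genome build, annotation and strand setting are not given in the sources used here. Groups and replicate numbers were read from the sample titles.

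The main test was edgeR 4.0.16 in R 4.3.3 (filterByExpr, TMM, robust quasi-likelihood fit, condition as the only factor), on the whole table, with Benjamini-Hochberg adjustment over all 15029 tested genes. The 95% intervals and standard errors came from the same fit. The alternatives were DESeq2 1.42.0, its size factors, library size alone, other filters (none, or at least 1 CPM in 3 libraries), the replicate number as a block, limma 3.58.1 on log2(FPKM + 1) and log2(FPKM + 0.1), and leaving out each library. The paper's own calls used DESeq2, in an earlier version. The fits were tested on simulated counts.

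The members and lists were chosen with earlier results of these data known. All members are named. Of the other lists, those called by edgeR with all libraries (0 genes) and the most abundant per length were to be named. Other genes, among them TP63, PAX6, EPCAM, ACAN, ESRP2, HAS1, CEMIP2, those called by another fit and those at or near 0, were chosen after their values were seen. Of 22177 NCBI gene identifiers, 19462 matched the RefSeq table of mOryCun1.1, used for neighbours only. The values of 1 listed gene are not reported here, though counts over its list include it.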

Additional observations from a re-analysis of the deposited data

How the results depend on the processing

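The number of hyaluronan members called, 0, became 1 (HAS3) with DESeq2 and lay between 0 and 2 over the left-out libraries, the 2 being HAS3 and HMMR without preconditioned replicate 1. The number of other pathway genes called, also 0, was 1 (ACAN) with DESeq2, without a filter, with the filter at 1 CPM and with limma on log2(FPKM + 0.1), was 1 (UGP2) without the fold change cutoff, and ranged from 0 to 3 over the left-out libraries. Of 54 marker genes tested, 0 were called with all libraries. DESeq2 called 14, of which 11 were genes of dividing cells, when 7.78% of all genes passed with that tool. The number was 1 with library size alone, 3 and 4 with limma on log2(FPKM + 1) and log2(FPKM + 0.1), and 0 to 19 over the left-out libraries. It was highest without preconditioned replicate 1, where 14 of the 19 were genes of dividing cells and 9.99% of all tested genes passed. The causes were not tested. Of 140 log2 fold changes of members under other settings, 127 kept sign and side of the cutoffs, 3 passed them and 10 changed sign. HAS2 turned from 0.07 to −0.087 with library size alone, −0.37 and −0.42 with limma on log2(FPKM + 1) and log2(FPKM + 0.1), and −0.92 to 0.47 over the left-out libraries. Over these, HYAL1 was −0.10 to 0.066 (7.79e-05 without preconditioned replicate 1), PTX3 −1.49 to 0.022 and CEMIP −0.44 to 0.50. With library size alone the median log2 fold change of all genes moved from 0.01 to −0.16.

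With the replicate number as a block, HAS2 had −0.28, and 0 members, 0 pathway genes and 0 marker genes were called. Whether libraries of the same number share an animal or a batch is not given. Their deviations from the group means correlated at −0.07, −0.07 and −0.11 across genes. These correlations cannot decide the question with so few libraries. With 3 libraries a group, the 95% intervals of HAS2, TNFAIP6 and PTX3 include 2-fold differences in both directions.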

Other observations

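The deposited annotation covers the hyaluronan genes unevenly. HAS2, HYAL1, HYAL2 and VCAN carry 0 GO terms in the table, whereas 73.2% of all its genes carry at least 1. Of the 6 members with terms, HAS3, CD44, TNFAIP6, HMMR and CEMIP have a term that names hyaluronan, and PTX3 has 23 terms without one. An enrichment test based on these columns would not count the synthase HAS2, both hyaluronidases and versican. In the whole table, 29 genes carry a term that names hyaluronan, 17 of them were tested, 0 were called by edgeR, and their median log2 fold change was 0.14. In the RefSeq annotation of mOryCun1.1, VCAN lies next to HAPLN1, a link protein that ties versican to hyaluronan. HAPLN1 was at 0.520 to 0.731 CPM in fresh and 0.213 to 0.576 CPM in preconditioned libraries (log2 fold change −0.82, edgeR's adjusted p = 0.32), whereas the log2 fold change of VCAN was 1.01.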
